A study of Mus musculus with 32 samples.

Results

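The 9 genes described here encode a hemoglobin chain, proteins of the red-cell membrane and its skeleton, and an enzyme that red cells hold in quantity: Hbb-bt, Slc4a1, Epb42, Sptb, Rhag, Rhd, Ermap, Aqp1 and Car2. They were chosen by symbol from the 27728 genes of the table, all 9 had a row, and all 9 passed the filter on low counts in the fetal and in the adult fit. Their high level in 1 library of the 10000 ppm group, replicate 2, was known when they were chosen, so the values of that group are given as a description with no test.

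RNA was sequenced from sorted mouse hematopoietic progenitors that carried no lineage markers, were positive for cKit and were negative for Sca1, in 32 libraries of 9 groups. U2af1, the gene altered in most groups, encodes a splicing factor. Fetal liver of E14.5 embryos gave 15 libraries. The flox control (n = 3) was U2af1(flox/flox) with no Cre, the heterozygous deletion (n = 3) was Vav1-Cre/U2af1(wt/flox), and the homozygous deletion (n = 3) was Vav1-Cre/U2af1(flox/flox). The S34F group (n = 4) was Vav1-Cre/U2af1(wt/S34F), with S34F a single amino acid substitution in the encoded splicing factor, and the Vav1-Cre group (n = 2) carried the Cre alone. Vav1-Cre deletes floxed sequence throughout the blood lineages. The flox control lacked Cre, so the presence of Cre and the loss of U2af1 cannot be told apart in the comparisons with it. The 17 adult libraries came from bone marrow. The dosed mice carried Mx1-Cre, rTA and the transgene tgU2AF1(WT) on a U2af1(flox/S34F) background, and received pIpC, which induces Mx1-Cre. Their chow held doxycycline, which turns on the transgene of wild-type U2AF1, at 1250 ppm in 4 libraries, 2500 ppm in 6 and 10000 ppm in 4. The adult control (n = 3) had Mx1-Cre, rTA and tgU2AF1(WT) with U2af1(wt/wt) and was untreated, so it differed from the dosed groups in genotype, pIpC and chow at once. The labels gave the age of these mice only as adult and did not say whether replicates were separate animals, so p-values measure the spread between libraries, part of which may be technical.

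As progenitors become red cells they fill with hemoglobin and build a membrane that is stabilised by a spectrin network on its inner face. Band 3, the anion exchanger encoded by Slc4a1, and the Rh complex anchor that network through ankyrin and protein 4.2, while carbonic anhydrase in the cytoplasm and aquaporin in the membrane serve carbon dioxide and water exchange. The globin, band 3, protein 4.2 and spectrin genes are known to rise steeply late in the lineage, whereas Car2 and Aqp1 are already on in early erythroid progenitors and are used in other cell types too. The cells sorted here precede or begin that program. In sorted bulk RNA, fewer cells of a type and less RNA per cell cannot be told apart, and this holds for every result below.

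The promoters of the genes that fell furthest after homozygous deletion, Aqp1, Ermap and Rhd, and of Hbb-bt, the only globin among the 9 genes, are shown because the members moved together across libraries. Each sequence is the RefSeq promoter on GRCm38.p6, from 250 bases before to 50 bases after the start annotated there, and runs 5′ to 3′ on the gene's own strand. These starts can differ from the gene coordinates given further below. For Aqp1 the window ends at 55336348, before the gene start of 55336432. Capitals mark a GATA motif (AGATAA, also with T as its first base as in TGATAA or with G as its last base as in AGATAG, and TGATAG) or a CACCC-type motif (CCNCNCCC), read on either strand. Hbb-bt lies at chr7:103813874-103814173 on the minus strand, Rhd at chr4:134864286-134864585 on the plus strand, Ermap at chr4:119189946-119190245 on the minus strand and Aqp1 at chr6:55336049-55336348 on the plus strand.
Hbb-bt: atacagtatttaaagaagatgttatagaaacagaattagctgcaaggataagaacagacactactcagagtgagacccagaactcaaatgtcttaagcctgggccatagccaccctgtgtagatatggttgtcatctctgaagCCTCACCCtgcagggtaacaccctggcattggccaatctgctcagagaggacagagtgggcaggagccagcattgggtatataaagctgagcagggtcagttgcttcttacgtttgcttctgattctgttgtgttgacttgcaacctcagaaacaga
Rhd: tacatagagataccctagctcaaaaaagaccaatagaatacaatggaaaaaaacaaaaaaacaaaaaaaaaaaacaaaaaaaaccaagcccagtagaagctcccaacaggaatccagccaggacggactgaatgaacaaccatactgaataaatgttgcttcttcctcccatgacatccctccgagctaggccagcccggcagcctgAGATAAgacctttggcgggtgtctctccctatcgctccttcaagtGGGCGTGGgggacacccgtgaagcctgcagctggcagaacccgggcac
Ermap: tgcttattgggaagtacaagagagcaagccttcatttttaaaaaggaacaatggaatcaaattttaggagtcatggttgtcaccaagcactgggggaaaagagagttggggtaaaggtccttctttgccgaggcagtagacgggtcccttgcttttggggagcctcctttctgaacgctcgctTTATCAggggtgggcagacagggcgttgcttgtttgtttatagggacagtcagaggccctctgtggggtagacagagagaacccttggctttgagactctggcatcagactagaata
Aqp1: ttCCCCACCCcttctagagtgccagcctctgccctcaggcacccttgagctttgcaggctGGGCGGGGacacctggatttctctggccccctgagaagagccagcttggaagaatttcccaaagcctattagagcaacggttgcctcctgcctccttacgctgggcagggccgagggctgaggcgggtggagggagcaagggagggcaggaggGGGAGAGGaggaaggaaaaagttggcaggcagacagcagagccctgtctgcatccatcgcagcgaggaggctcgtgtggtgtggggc
Promoters were held for 7 of the 9 genes: these 4 with Epb42, Sptb and Rhag. A GATA motif was present in 5 of the 7 (Epb42, Sptb, Rhag, Rhd and Ermap), against 29.8% of all 32851 promoters of this length. A CACCC-type motif was present in 4 of 7 (Hbb-bt, Sptb, Rhd and Aqp1), against 49.5%, and the motif TATAAA in 3 of 7 (Hbb-bt, Epb42 and Ermap), against 13.6%. In Rhd the GATA motif lay 43 bases before the start, in Ermap 67 and in Rhag 31. In Sptb a pair of CACCC-type matches overlapped each other. Aqp1, which had the largest fold change in the fetal tests, held 3 CACCC-type matches and no GATA motif in this window. These matches are letters in a sequence and were not tested as binding sites.

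The libraries held 26.59 to 71.25 M counts (M, 1000000), and 3 counts, the smallest number taken as detection, equalled 0.0421 to 0.113 counts per 1000000 counts (CPM) in fetal and 0.0429 to 0.0922 CPM in adult libraries. Such limits cover counting error only, since reads carried no molecular identifiers. Of the genes of the sorting gate, 4 of 5 had a row (Ly6a, which encodes Sca1, was not analysed here), and their summed level was 1124 to 1549 CPM in fetal and 897 to 1893 CPM in adult libraries. Markers of hepatocytes, macrophages, neutrophils, B cells, megakaryocytes, and mast cells and basophils were present in the fetal groups. Several libraries stood apart from their group in the red-cell genes: 10000 ppm replicate 2, 1250 ppm replicate 1, 2500 ppm replicate 4, untreated wild-type replicate 3, and, among fetal libraries, heterozygous deletion replicate 3 and flox control replicate 3. Each is described with the result it touches. All libraries of the flox control and of both deletions belonged to batch A, all S34F libraries to batch B, and the Vav1-Cre group had 1 library in each.

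**Figure D1:**
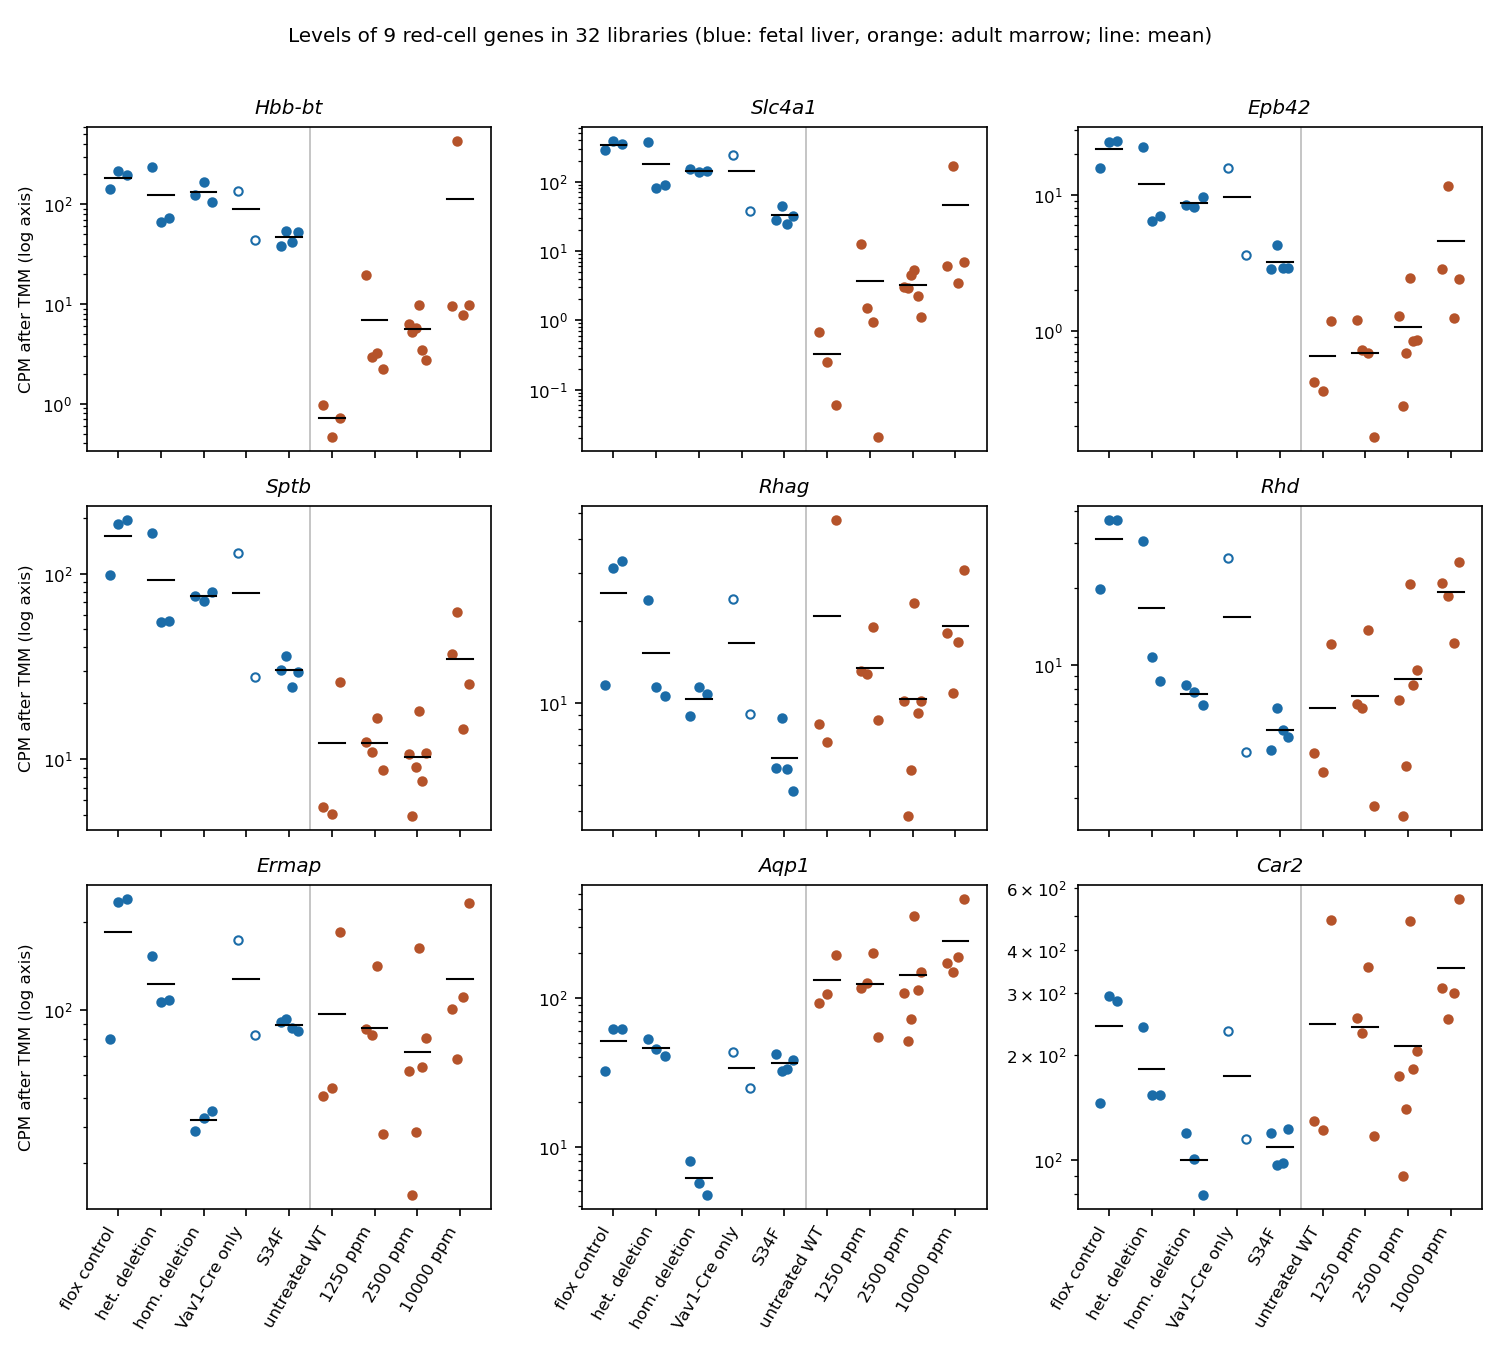
Level of each of the 9 genes in every library, in CPM on a log axis, for the 9 groups; each point is a library (blue, fetal liver; orange, adult marrow) and the line is the group mean. Open points are the Vav1-Cre libraries, which come from different batches. Hbb-bt and Slc4a1 are highest in the fetal groups and in 10000 ppm replicate 2 (427 and 166 CPM), while Aqp1 and Car2 are highest in 10000 ppm replicate 4.

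Compared per length, as CPM per kilobase of exon (RPKM), Hbb-bt had the highest level of the 9 genes in every fetal group, with means from 66.1 RPKM in the S34F group to 263 RPKM in the flox control. In the flox control it was followed by Car2 (99.95 RPKM), Slc4a1 (69.9 RPKM), Ermap (34.95 RPKM), Aqp1 (19.7 RPKM), Rhd (19.5 RPKM), Sptb (13.1 RPKM), Rhag (10.8 RPKM) and Epb42 (3.98 RPKM). In the adult control the order was different: Car2 led at 101 RPKM and Aqp1 was next at 50.2 RPKM, while Hbb-bt had 1.03 RPKM and Slc4a1 0.0671 RPKM. Adult progenitors therefore carried Car2 and Aqp1 messages with little Hbb-bt or band 3 message, apart from 10000 ppm replicate 2 (Hbb-bt 427 CPM, Slc4a1 166 CPM). The next highest adult library for both was 1250 ppm replicate 1, at 19.3 and 12.5 CPM. Of 10 other globin genes listed, 3 had a row (Hba-x, Hbb-bh1 and Hbb-bh2), and the rest were not analysed here. The globin message as a whole was therefore not measured. Fetal and adult libraries differ in tissue and age at once, which cannot be told apart, the labels used here give no batch for adult libraries, and no test was made between them.

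How the loss of both U2af1 alleles changes these genes in fetal progenitors was measured by setting the homozygous deletion against the flox control. All 9 genes were lower on average, and 7 of 9 fell by edgeR's quasi-likelihood test with a Benjamini-Hochberg adjusted p under 0.05 over the 12678 genes tested. In the same comparison 41.0% of all genes were called, and 22.4% were called lower. The median log2 fold change of the 9 genes was -1.30, against -0.02 for all genes. In 8 of the 9 genes every homozygous deletion library was below every flox control library, as was true of 25.7% of genes with a mean of at least 10 counts. The exception was Hbb-bt.

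Hbb-bt (ENSMUSG00000073940, chromosome 7, 103812524 to 103813996, minus strand) encodes an adult beta-globin chain, and reads of its near-identical neighbour Hbb-bs may have been split or lost in counting, so its level is uncertain. It had 143, 213 and 197 CPM in flox control replicates 3, 4 and 5, and 123, 168 and 104 CPM in homozygous deletion replicates 2, 3 and 4. The ranges overlapped. The log2 fold change was -0.51 ± 0.40 (SE) and did not pass (edgeR, Benjamini-Hochberg adjusted p = 0.347).

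Slc4a1 (ENSMUSG00000006574, chromosome 11, 102348824 to 102366203, minus strand) encodes band 3, the anion exchanger of the red-cell membrane. It had 287, 384 and 354 CPM in the flox control and 154, 136 and 142 CPM in the homozygous deletion. The groups did not overlap, yet the log2 fold change of -1.26 ± 0.47 (SE) stayed just above the threshold in the fit of all 3 genotypes (edgeR, adjusted p = 0.0512). Fitted on the 2 compared groups alone, where no heterozygous deletion library enters the spread, the adjusted p of this edgeR test was 0.000316. The share of all genes called in that fit was not counted. Slc4a1 was called under 3 of 13 alternative settings, with adjusted p (edgeR or DESeq2) from 6.04e-06 to 0.143.

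Epb42 (ENSMUSG00000023216, chromosome 2, 121017891 to 121037072, minus strand) encodes protein 4.2, which joins band 3 to the skeleton. It had 15.6, 24.4 and 24.6 CPM in the flox control and 8.37, 8.14 and 9.67 CPM in the homozygous deletion, a log2 fold change of -1.32 ± 0.41 (SE; edgeR, adjusted p = 0.0248). The homozygous deletion libraries lay close together and all below the flox control. Sptb (ENSMUSG00000021061, chromosome 12, 76580488 to 76710547, minus strand) encodes beta-spectrin, and its locus overlaps Gm24010 and Plekhg3 on the other strand, from which reads could not be separated if strand was not used in counting. It had 98.8, 185 and 194 CPM in the flox control and 75.4, 70.99 and 79.3 CPM in the homozygous deletion, a log2 fold change of -1.10 ± 0.39 (SE; edgeR, adjusted p = 0.0430).

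The Rh genes fell as well, Rhd further than Rhag. Rhag (ENSMUSG00000023926, chromosome 17, 40811126 to 40840754, plus strand) encodes the Rh-associated glycoprotein, a gas or ammonium channel that Rh proteins need to reach the membrane. It had 11.6, 31.2 and 33.1 CPM in the flox control and 8.91, 11.4 and 10.8 CPM in the homozygous deletion, a log2 fold change of -1.30 ± 0.39 (SE; edgeR, adjusted p = 0.0204). Flox control replicate 3 was nearly as low as the deletion libraries. Rhd (ENSMUSG00000028825, chromosome 4, 134864536 to 134896172, plus strand), the mouse Rh blood group gene, had 19.8, 36.6 and 36.6 CPM in the flox control and 8.32, 7.84 and 6.96 CPM in the homozygous deletion. Its log2 fold change was -2.03 ± 0.42 (SE; edgeR, adjusted p = 0.00328).

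Ermap (ENSMUSG00000028644, chromosome 4, 119175457 to 119190011, minus strand) encodes an erythroid membrane-associated protein of the immunoglobulin superfamily, which carries the Scianna blood group in humans. It had 79.8, 236 and 240 CPM in the flox control and 38.7, 42.8 and 45.1 CPM in the homozygous deletion, a log2 fold change of -2.15 ± 0.34 (SE; edgeR, adjusted p = 0.000725). Aqp1 (ENSMUSG00000004655, chromosome 6, 55336432 to 55348555, plus strand) encodes the water channel of the red-cell membrane. It had 32.1, 61.8 and 61.5 CPM in the flox control and 7.96, 5.66 and 4.76 CPM in the homozygous deletion. Of the 9 genes it had the largest fold change, -3.09 ± 0.26 (log2, SE; edgeR, adjusted p = 2.13e-05), with the highest deletion library (7.96 CPM) far below the lowest control library (32.1 CPM).

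Car2 (ENSMUSG00000027562, chromosome 3, 14886273 to 14900770, plus strand) encodes carbonic anhydrase 2, the fast cytoplasmic enzyme that interconverts carbon dioxide and bicarbonate. It had 146, 295 and 286 CPM in the flox control and 120, 101 and 79.4 CPM in the homozygous deletion, a log2 fold change of -1.30 ± 0.26 (SE; edgeR, adjusted p = 0.00278). Flox control replicate 3 was the lowest library of its group for all 9 genes, at 0.336 to 0.778 times the mean of the other two. Without it 8 of the 9 genes were called, Slc4a1 among them, in a fit for which the share of all genes called was not counted. Rhd, Ermap, Aqp1 and Car2 were called under all 13 alternative settings. Epb42, Sptb and Rhag lost the call when any of flox control replicate 4, flox control replicate 5 or a homozygous deletion replicate was left out, which left 4 genes called.

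**Figure D2:**
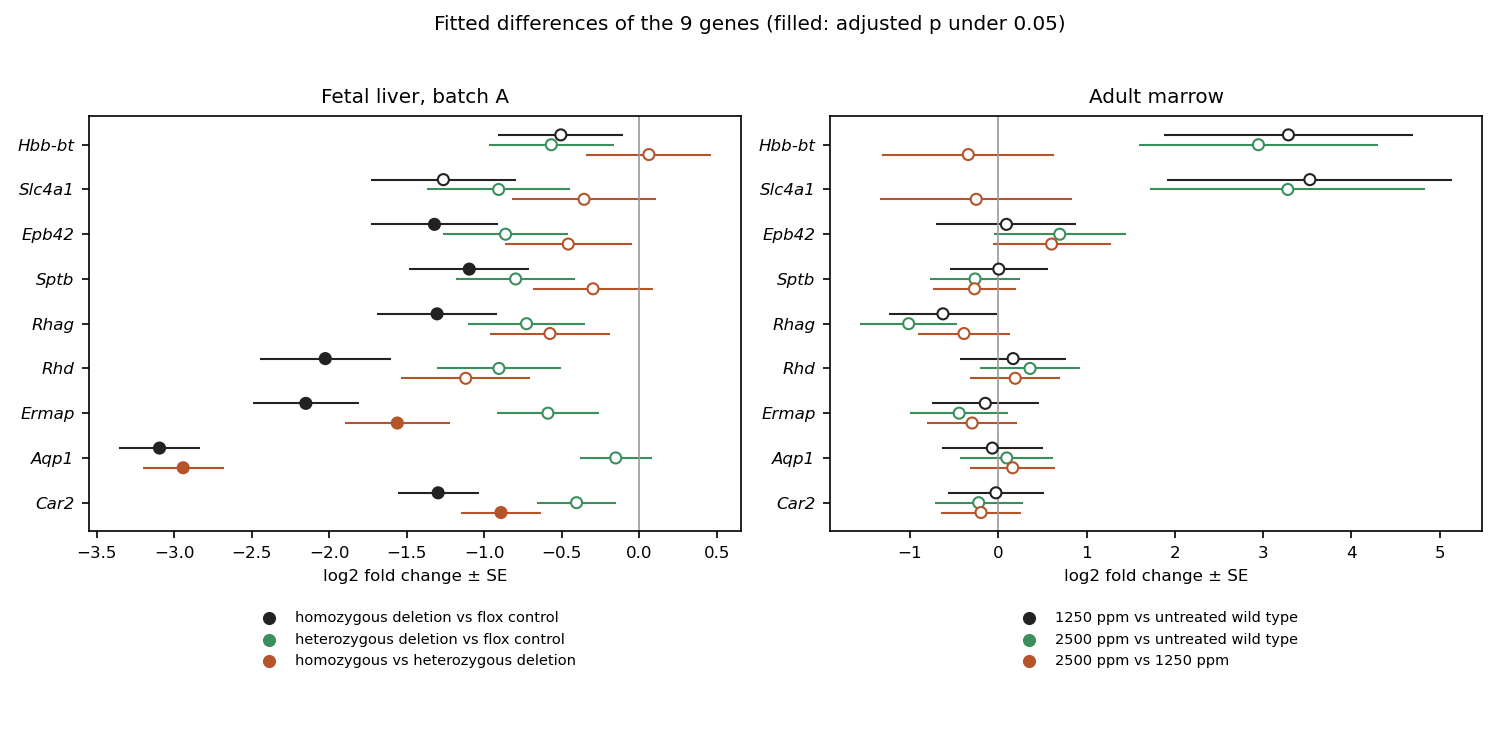
Log2 fold changes of the 9 genes with standard errors in the 3 fetal comparisons (left) and the 3 adult comparisons (right) that were tested, coloured by comparison; filled points had an adjusted p under 0.05. Aqp1, Ermap and Rhd are furthest below 0 in homozygous deletion against flox control, and no adult point is filled.

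Whether losing 1 allele changes the same genes was measured by setting the heterozygous deletion against the flox control, whose libraries are shared with the comparison above. None of the 9 genes passed (edgeR, 0 of 9, with 0.0316% of all genes called), and DESeq2 called 0 too. Without the filter on low counts 4 were called, all lower (Slc4a1, Epb42, Sptb and Rhd), and the share of all genes called was not counted there. Rhd alone had an unadjusted p under 0.05 (edgeR, unadjusted p = 0.0458, adjusted p = 0.556). All 9 log2 fold changes were nonetheless below 0, with a median of -0.73 (all genes, 0.00).

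The 3 heterozygous libraries were not alike. For Slc4a1, replicates 3, 4 and 5 had 378, 80.5 and 90.4 CPM. For Hbb-bt they had 236, 66.4 and 72.5 CPM. Replicate 3 lay in or above the range of the flox control for these, and replicates 4 and 5 were lower than any flox control library. For Rhd the values were 30.5, 10.7 and 8.65 CPM, for Epb42 22.4, 6.38 and 6.97 CPM, and for Sptb 165, 55.1 and 55.4 CPM. The split was smaller for Rhag (23.8, 11.5 and 10.6 CPM) and Car2 (241, 153 and 154 CPM). It was smallest for Ermap (154, 107 and 108 CPM) and Aqp1 (53.4, 45.2 and 40.7 CPM), so that replicate 3 was 4.43 times the mean of the other two for Slc4a1 and 1.24 times for Aqp1.

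Without heterozygous replicate 3, 5 of 9 genes were called lower than the flox control by the same edgeR test: Hbb-bt (log2 fold change -1.39, adjusted p = 0.0352), Slc4a1 (-1.98, 0.000612), Epb42 (-1.67, 0.0299), Sptb (-1.51, 0.0484) and Rhd (-1.66, 0.0404). Aqp1 was at -0.25 and Ermap at -0.77 in that fit, with adjusted p-values of 0.745 and 0.408. Without flox control replicate 3, Ermap was the 1 gene called (-0.95, edgeR, adjusted p = 0.00729). The count of 0 of 9 genes thus depended on the libraries included and on the filter. The share of all genes called was counted in the main fits only, so the counts in these other fits have no background beside them. Heterozygous replicate 3 was singled out by its values in these same genes, so the calls without it are no separate support.

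The homozygous deletion was then set against the heterozygous deletion, and 3 of the 9 genes were called, all lower. Ermap fell by 1.56 on the log2 scale (SE 0.34; edgeR, adjusted p = 0.00382), Aqp1 by 2.94 (SE 0.26, adjusted p = 2.94e-05) and Car2 by 0.89 (SE 0.26, adjusted p = 0.0178). These 3 of 9 are a smaller share than the 42.3% of all genes called in either direction, and 22.4% of all genes were called lower. Rhd stood at -1.12 ± 0.41 (SE; edgeR, adjusted p = 0.0501). With Rhd, the same genes were those in which no homozygous library reached the heterozygous range (4 of 9, against 26.9% of genes). Hbb-bt stood at 0.06 and Slc4a1 at -0.36. Without heterozygous replicate 3, Epb42 (0.35) and Sptb (0.41) changed sign without being called, Slc4a1 changed sign to 0.72 and Hbb-bt was at 0.88, both called higher in the homozygous deletion (edgeR, adjusted p = 0.00176 and 0.00717), Ermap and Aqp1 kept their call, and Car2 lost it (-0.66, adjusted p = 0.0708).

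Marker genes of other cells moved with these results. The summed level of the hepatocyte list (10 of 12 genes with a row, none at 0 in every library of a fetal group) was 112, 639 and 412 CPM in flox control replicates 3, 4 and 5. It was 132, 55.7 and 58.5 CPM in heterozygous replicates 3, 4 and 5, and 40.6, 26.6 and 16.7 CPM in homozygous replicates 2, 3 and 4. Thus flox control replicate 3, with the lowest red-cell levels of its group, was also the lowest for hepatocyte markers, and heterozygous replicate 3 was the highest of its group for both. The macrophage list (10 of 11) summed to 135 to 146 CPM in the flox control, 65.1 to 108 CPM in the heterozygous and 75.7 to 117 CPM in the homozygous deletion. Its genes did not move together: against the flox control 8 of 10 fell in the homozygous deletion (edgeR, median log2 fold change -3.22), among them the complement gene C1qa, and the abundant Vcam1 and Slc40a1 rose. Against the heterozygous deletion 8 of 10 fell and 2 rose too (median -2.13). The megakaryocyte list (6 of 8) summed to 106 to 179, 121 to 126 and 51.9 to 71.01 CPM in the same order. For B cells (5 of 8) the sums were 57.9 to 120, 68.3 to 91.8 and 23.6 to 26.3 CPM, with 1 gene at 0 in all homozygous libraries. Mast-cell and basophil markers (6 of 7) summed to 77.5 to 127 CPM in the flox control and 109 to 191 CPM in the homozygous deletion, ranges that overlap. Of these 6 genes 2 were called higher and 0 lower by edgeR, and 4 had a log2 fold change above 0 (median 0.67). In the same groups the neutrophil list (7 of 10) summed to 14762 to 21794 and 15945 to 18361 CPM. Of those 7 neutrophil genes 5 rose and none fell between flox control and homozygous deletion by the edgeR test (median log2 fold change 0.93), with Ngp furthest (2.81), while Mpo, a peroxidase gene, stood at -0.21 and was not called. The part of these cells in the red-cell results was not tested.

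Other red-cell genes were taken from lists of globins, membrane skeleton, membrane proteins and enzymes; 36 of 50 had a row, and the rest were not analysed here. In homozygous deletion against flox control 22 of 35 that passed the filter were called by edgeR, 18 lower and 4 higher, with a median log2 fold change of -0.69, where 41.0% of all genes were called and 22.4% were called lower. Among skeleton genes 4 fell and 2 rose of 10, among membrane proteins 8 fell and 2 rose of 15, and among enzymes 6 of 8 fell. The furthest falls were in Cd59a, an inhibitor of complement lysis (-1.95 ± 0.26, SE; edgeR, adjusted p = 0.000285), Slc2a4, a glucose transporter (-1.83 ± 0.56, adjusted p = 0.0232), and Car1, carbonic anhydrase 1 (-1.68 ± 0.31, adjusted p = 0.00176). Slc2a4 was low, at 0.0298 to 1.73 CPM (median 0.389) over the 15 fetal libraries, reaching below the limit of detection.

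Rises were found in Aqp9, a channel for water and glycerol (0.75 ± 0.14, SE; edgeR, adjusted p = 0.00218), Xk, the carrier of the Kx antigen (0.67 ± 0.10, adjusted p = 0.000638), and Stom, stomatin (0.45 ± 0.09, adjusted p = 0.00335). Aqp9 and Aqp1, both water channels, thus changed in opposite directions. Ank1, whose ankyrin ties spectrin to band 3, had a log2 fold change of -1.57 and was called. The embryonic globins Hba-x and Hbb-bh1 (0.09 and -1.07) were not called.

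Of the 10 heme and iron genes, 3 were called, all lower: Alas2, the first enzyme of heme synthesis in red cells (-1.40), Urod (-0.92) and Alad (-0.86). Of 7 erythroid regulators 3 were called, all lower: the erythropoietin receptor Epor (-1.03) and the nuclear factors Ldb1 (-0.66) and Bcl11a (-0.61). Gata1, the master erythroid factor, was at -0.18 (edgeR, adjusted p = 0.479). These counts compare with 41.0% of all genes called and 22.4% called lower. None of the 35 red-cell genes was called in the heterozygous deletion against the flox control (2 had an unadjusted p under 0.05, and DESeq2 called 0).

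Homozygous against heterozygous deletion called 15 of 35 red-cell genes, 9 lower and 6 higher, a share near the 42.3% of all genes called. Cd59a (-1.77), Car1 (-1.68) and Ank1 (-0.96) led the falls, and Cd24a, a surface glycoprotein of immature blood cells (0.90), Aqp9 (0.88) and Xk (0.73) led the rises. Here Urod (-0.67) fell and Slc25a38 (0.49), a mitochondrial glycine carrier for heme synthesis, rose, and the regulators Bcl11a (-0.72) and Ldb1 (-0.67) fell, all by the edgeR test.

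**Figure D3:**
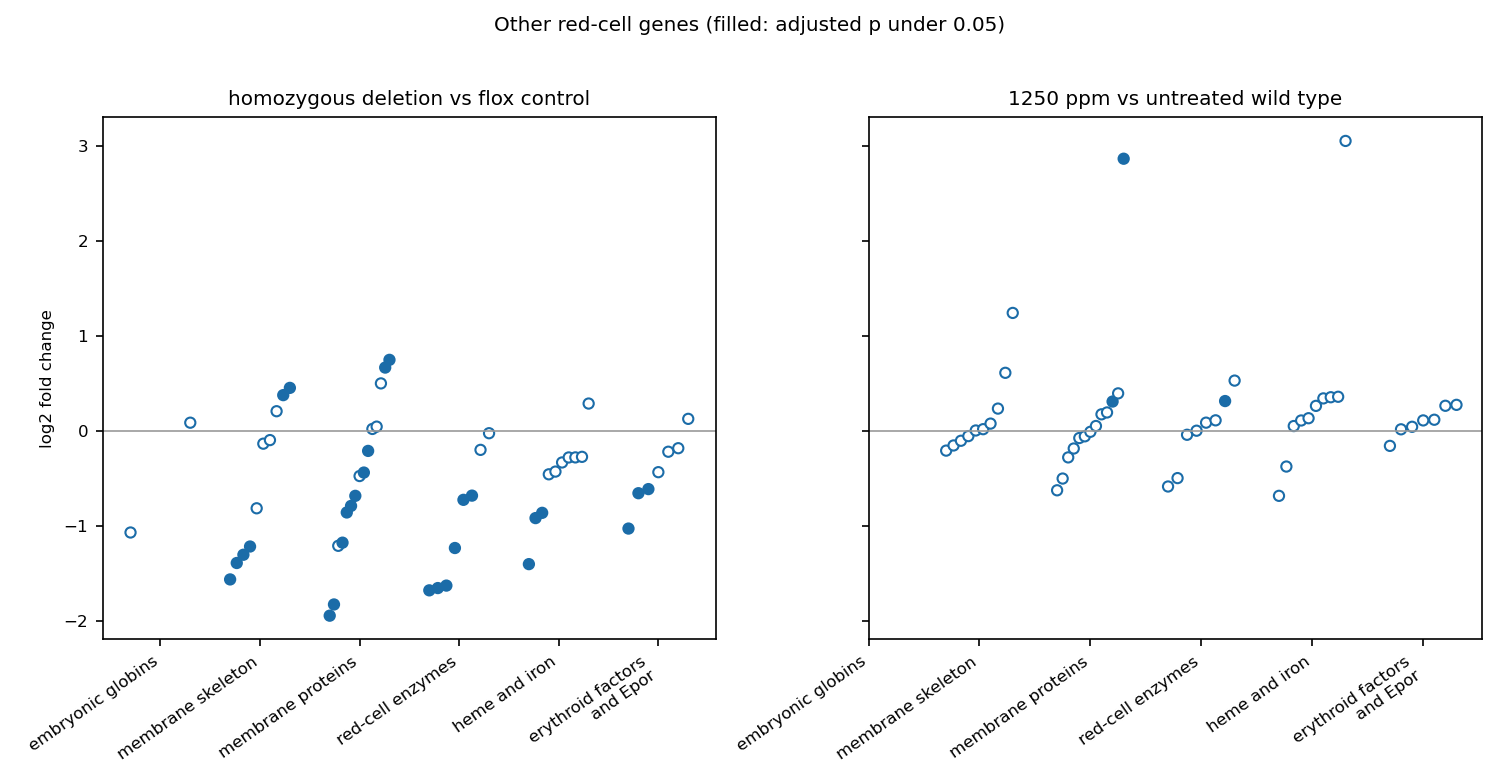
Log2 fold changes of the other red-cell, heme and erythroid-regulator genes, by list, in homozygous deletion against flox control and in 1250 ppm against untreated wild type; each point is a gene, and filled points had an adjusted p under 0.05. In the fetal panel Cd59a, Slc2a4 and Car1 are lowest and Aqp9 and Xk highest, and in the adult panel Bcam, Cyb5r3 and Bsg are filled.

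The S34F libraries of batch B could be set only beside the 1 Vav1-Cre library of that batch, so their differences have no test. In S34F replicates 1 to 4, Aqp1 was at 42.1, 32.2, 33.1 and 38.5 CPM against 24.9 CPM in the control, 1.29 to 1.69 times as high. Rhag was at 5.75, 8.81, 5.70 and 4.76 CPM against 9.11 CPM, 0.522 to 0.967 times. Aqp1, Rhd (1.01 to 1.49 times) and Ermap (1.04 to 1.14 times) were above the control in 4 of 4 libraries and Rhag below it in all 4.

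The remaining genes lay on both sides of the control: Hbb-bt at 0.872 to 1.23 times, Slc4a1 at 0.639 to 1.18 times, Epb42 at 0.781 to 1.18 times, Sptb at 0.885 to 1.30 times and Car2 at 0.847 to 1.07 times. Epb42 was highest in S34F replicate 2, at 4.29 CPM, with the other 3 libraries between 2.83 and 2.88 CPM. None of the 9 genes differed 2-fold or more in all 4 libraries, as 1.01% of genes did upward and 0.296% downward. The Vav1-Cre libraries themselves differed between batches: Slc4a1 was at 247 CPM in batch A and 38.4 CPM in batch B, Rhd at 26.1 and 4.55 CPM, Hbb-bt at 135 and 44.0 CPM and Aqp1 at 43.2 and 24.9 CPM. With 1 library in each, batch and library cannot be told apart.

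In adult marrow, the dosed groups were compared with the untreated wild type to see how these genes stand when U2AF1 is supplied from the transgene at different doses. None of the 9 genes was called at 1250 ppm against wild type (11.4% of 13338 genes were called), at 2500 ppm against wild type (0.487%) or at 2500 against 1250 ppm (1.91%), by edgeR's quasi-likelihood test. DESeq2 called none of the 9 in these comparisons. At an unadjusted p under 0.05 the edgeR counts were 2, 1 and 0 of 9. The comparisons with wild type share its 3 libraries.

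Hbb-bt was low in all 3 wild-type libraries, at 0.965, 0.470 and 0.727 CPM. At 1250 ppm replicates 1, 3, 4 and 5 had 19.3, 2.93, 3.25 and 2.24 CPM, and at 2500 ppm the lowest, median and highest libraries had 2.73, 5.52 and 9.80 CPM. Every dosed library was thus above every wild-type library, as held for 17.4% of genes at 1250 ppm and 5.34% at 2500 ppm. The log2 fold change was 3.29 ± 1.41 (SE; edgeR, adjusted p = 0.126) at 1250 ppm and 2.95 ± 1.35 (adjusted p = 0.319) at 2500 ppm. Fitted on the compared groups alone, without the other dosed groups in the spread, the edgeR adjusted p at 1250 ppm was 0.0241, past the threshold. At 2500 ppm it was 0.0639. Of 14 alternatives at 1250 ppm this was the 1 that called Hbb-bt. The main fit held all adult groups, so the spread of its tests includes 10000 ppm replicate 2. The part of that library in the change was not tested. Without 1250 ppm replicate 1 the fold change at 1250 ppm was 1.99 (edgeR, adjusted p = 0.372), and over all alternatives the adjusted p ran from 0.0241 to 0.372.

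Slc4a1 was low in wild type, with 0.671, 0.253 and 0.0606 CPM from 32, 14 and 3 counts, the last at the limit of detection. At 1250 ppm it had 12.5, 1.49, 0.942 and 0.0210 CPM, the last from 1 count in replicate 5, and at 2500 ppm a lowest, median and highest of 1.11, 2.98 and 5.27 CPM. The 2500 ppm libraries were above all wild-type libraries, and the 1250 ppm libraries overlapped them. The log2 fold changes were 3.53 ± 1.61 (SE; edgeR, adjusted p = 0.151) and 3.28 ± 1.56 (adjusted p = 0.331). Replicate 1 of the 1250 ppm group was 15.3 times the mean of the other 3 libraries for Slc4a1 and 6.88 times for Hbb-bt, but 0.905 to 2.27 times for the other 7 genes.

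The other 7 genes showed no separation between wild type and the lower doses. In wild-type replicates 1, 2 and 3, Rhag had 8.35, 7.19 and 46.8 CPM, Ermap 51.0, 54.4 and 185 CPM, Car2 129, 122 and 486 CPM and Aqp1 93.2, 107 and 195 CPM. Wild-type replicate 3 was thus 6.02 times the mean of the other two for Rhag, 4.91 times for Sptb, 3.87 times for Car2, 3.52 times for Ermap, 3.05 times for Epb42, 2.90 times for Rhd and 1.94 times for Aqp1. It was 1.01 times for Hbb-bt and 0.131 times for Slc4a1. Without this library still none of the 9 genes was called at 1250 or 2500 ppm against wild type, but the direction of several turned.

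At 1250 ppm Ermap had 86.2, 82.1, 142 and 37.8 CPM, Aqp1 117, 126, 202 and 54.4 CPM, and Car2 256, 230, 357 and 117 CPM in replicates 1, 3, 4 and 5, with replicate 4 highest and replicate 5 lowest in each. At 2500 ppm the lowest, median and highest libraries had 23.4, 63.0 and 163 CPM for Ermap, 51.8, 111 and 356 CPM for Aqp1, and 89.8, 178 and 483 CPM for Car2. Replicate 4 was the highest of the 2500 ppm group for all 9 genes, at 1.90 to 3.59 times the mean of the other 5. The log2 fold changes against wild type lay between -0.63 (Rhag) and 0.17 (Rhd) at 1250 ppm and between -1.02 (Rhag) and 0.70 (Epb42) at 2500 ppm for these 7 genes. Without wild-type replicate 3 all 7 were above 0, with Rhag at 0.78 and 0.40, Car2 at 0.93 and 0.75 and Ermap at 0.72 and 0.44 at 1250 and 2500 ppm. Of the 31 other red-cell genes that passed the filter, 3 rose at 1250 ppm against wild type: Bcam, the Lutheran adhesion molecule (2.86 ± 0.86, SE; edgeR, adjusted p = 0.0427), Cyb5r3, which reduces methemoglobin (0.31 ± 0.08, adjusted p = 0.0213), and Bsg, basigin (0.31 ± 0.09, adjusted p = 0.0418). Bcam was low, at 0.0361 to 1.70 CPM over the adult libraries, reaching below the limit of detection. At 1250 ppm against wild type 11.4% of all genes were called. The count of 3 fell to 0 or 1 when any library of either group was left out and to 0 without the filter on low counts. None was called in either other adult comparison (2 and 4 at an unadjusted p under 0.05; DESeq2 called 1 at 2500 ppm against wild type).

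At 10000 ppm, replicate 2 stood far from the other 3 libraries for part of the genes. Hbb-bt had 9.45, 427, 7.82 and 9.80 CPM in replicates 1 to 4, so that replicate 2 was 47.3 times the mean of the rest (9.02 ± 1.06 CPM, SD, n = 3). Slc4a1 had 6.16, 166, 3.50 and 7.02 CPM, and replicate 2 was 30.0 times the mean of the rest. For Epb42 the values were 2.84, 11.6, 1.25 and 2.39 CPM (5.40 times), and for Sptb 36.7, 62.1, 14.6 and 25.5 CPM (2.43 times).

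The remaining genes of the set did not share this rise. Rhd had 20.9, 18.6, 12.2 and 25.1 CPM, with replicate 2 at 0.959 times the mean of the rest. Ermap had 101, 68.1, 111 and 234 CPM, Aqp1 173, 150, 190 and 462 CPM, Car2 310, 253, 301 and 558 CPM, and Rhag 18.1, 10.9, 16.7 and 30.7 CPM. In these 4 genes replicate 2 was the lowest library of the group, at 0.458 to 0.649 times the mean of the rest, and replicate 4 the highest. Its levels of Ermap, Aqp1 and Car2 were nonetheless above those of wild-type replicates 1 and 2.

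**Figure D4:**
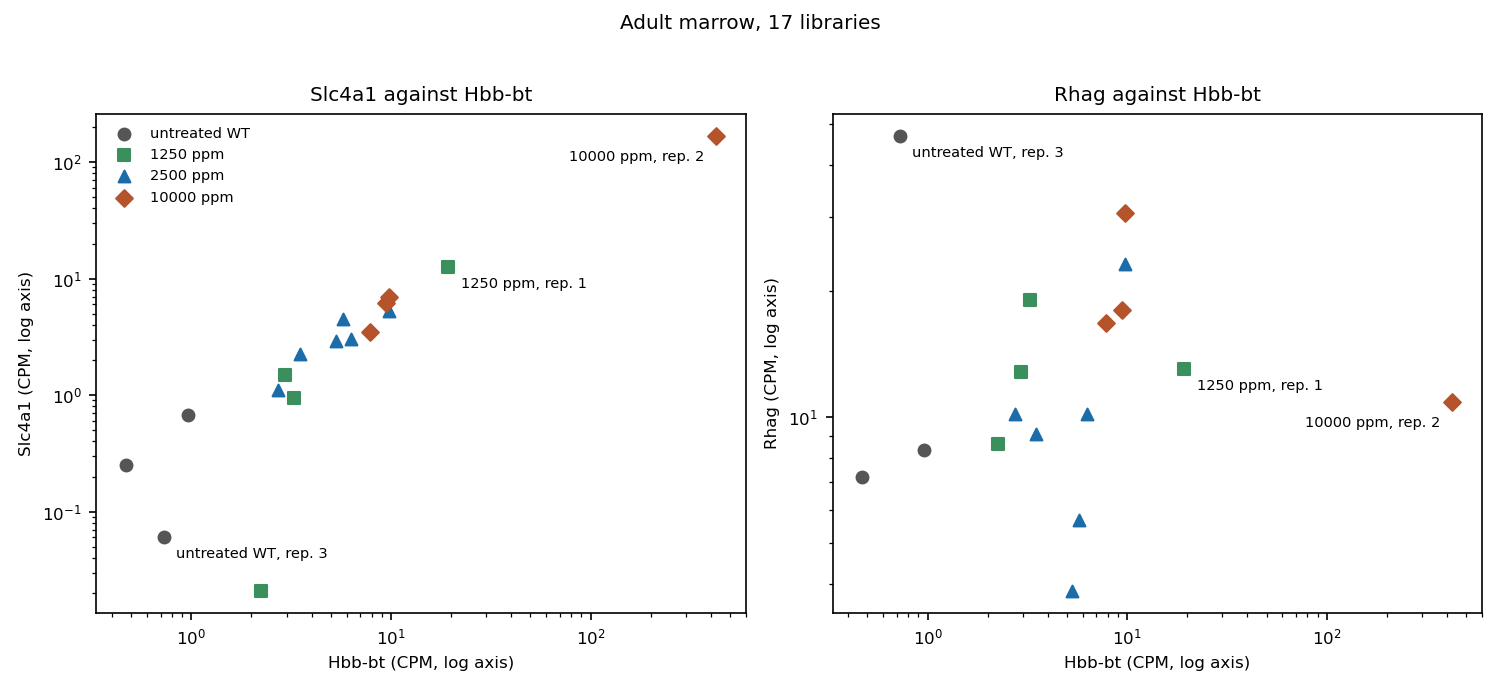
Levels in the 17 adult libraries, in CPM on log axes, with Slc4a1 (left) and Rhag (right) against Hbb-bt; each point is a library, and colour and shape give the group. In the left panel 10000 ppm replicate 2 lies far above the other 16 libraries on both axes, and in the right panel its Rhag level of 10.9 CPM lies within their range, while untreated wild-type replicate 3 is highest for Rhag (46.8 CPM).

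The heme enzyme gene Alas2 followed Hbb-bt, with 119.5 CPM in replicate 2 and 3.16, 1.26 and 2.84 CPM in replicates 1, 3 and 4 of the 10000 ppm group. The neutrophil list summed to 17296 to 65485 CPM in the 10000 ppm group, with replicate 2 the highest, against 34632 to 48318 CPM in wild type. The macrophage list summed to 152 to 476 CPM at 10000 ppm and 471 to 550 CPM in wild type, although 7 of its 9 tested genes had a fitted log2 fold change above 0 (median 2.84). Whether these cells account for part of the red-cell values was not tested.

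The 10000 ppm group was set against wild type as a description. It includes replicate 2, so its fold changes are no separate support for the division seen in that library. The fitted log2 fold change was 7.32 for Hbb-bt, 7.14 for Slc4a1, 2.79 for Epb42, 1.52 for Sptb, 1.51 for Rhd, 0.89 for Aqp1, 0.54 for Car2, 0.41 for Ermap and -0.12 for Rhag. Without replicate 2, Hbb-bt stood at 3.65, Slc4a1 at 4.09 and Epb42 at 1.72, and the median over the 9 genes was 1.08 in place of 1.51. Without wild-type replicate 3 that median was 2.23. No 10000 ppm library overlapped the wild type for Hbb-bt, Slc4a1, Epb42 and Rhd, as for 7.65% of genes upward.

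Against 1250 ppm, Hbb-bt stood at 4.03 with replicate 2 and 0.37 without it, and Slc4a1 at 3.61 and 0.56. The medians were 1.34 and 0.76, and only Epb42 was free of overlap between the groups, as were 7.44% of genes upward. Against 2500 ppm they were 1.15 and 1.02. Without replicate 2, all 9 genes were still higher on average at 10000 than at 1250 or 2500 ppm, by 0.37 (Hbb-bt) to 1.63 (Epb42) and by 0.71 (Hbb-bt) to 1.34 (Sptb) on the log2 scale. The genes moved together across libraries, so these are not 9 separate observations. Against 2500 ppm 0 of 9 genes were free of overlap. In the fit of all libraries the SEs there ran from 0.45 (Car2) to 1.12 (Slc4a1). Leaving out single replicates brought Aqp1 against 2500 ppm down to 0.30.

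Across libraries the 9 genes fell into levels that moved together to different degrees. Spearman's rho over the 36 pairs of genes ran from 0.30 to 0.98 with a median of 0.77 in the 15 fetal libraries, and from 0.26 to 0.98 with a median of 0.78 in the 17 adult libraries. These values describe libraries that share groups and, in fetal liver, batches, and carry no test. Within the 10 libraries of batch A the median was 0.78 (0.44 to 0.99), and in adult marrow without 10000 ppm replicate 2 it was 0.76 (0.27 to 0.99). Hbb-bt and Slc4a1 tracked each other at 0.95 in fetal (Pearson's r = 0.97) and 0.97 in adult libraries (r = 0.90). Ermap tracked Aqp1 at 0.93 and 0.97 (r = 0.88 and 0.95) and, in adult libraries, Car2 at 0.98 and Rhag at 0.97. Slc4a1 and Rhag were at 0.88 in fetal libraries (r = 0.88) and 0.26 in adult libraries (r = -0.04). Within batch A alone, Slc4a1 was at 0.71 with Rhag and at 0.87 with Hbb-bt, so part of the fetal values came with the batches.

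**Figure D5:**
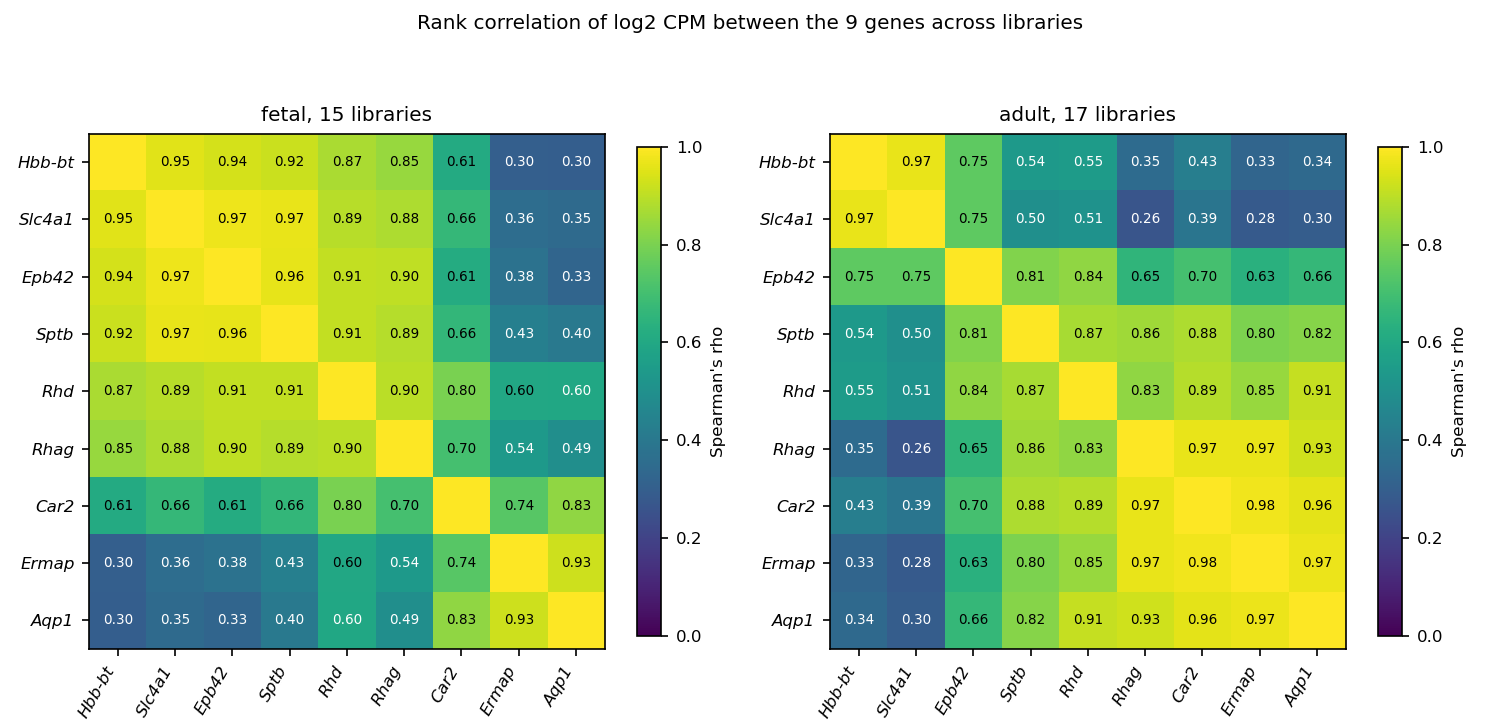
Spearman's rho between the log2 CPM of each pair of the 9 genes, over 15 fetal libraries (left) and 17 adult libraries (right). In the adult panel Rhag, Rhd, Ermap, Aqp1 and Car2 form a block of high values to which Hbb-bt and Slc4a1 do not belong, and Hbb-bt and Slc4a1 are high with each other.

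The genes most like the mean log2 CPM of the 9 were ranked separately in fetal and adult libraries. Among 8132 genes in the 15 fetal libraries the 5 highest included Ak3 (rho = 0.97, r = 0.89), Klf3 (0.96, 0.95), Ranbp10 (0.96, 0.92) and Camsap2 (0.96, 0.96). Among 8180 genes in the 17 adult libraries the 5 highest included Tent5c (rho = 0.93, r = 0.82), Blvrb (0.91, 0.84), Hemgn (0.91, 0.93) and Gfi1b (0.91, 0.84).

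Over all 9 groups, the flox control had the highest mean of Hbb-bt, Slc4a1, Epb42, Sptb, Rhag, Rhd and Ermap, and the 10000 ppm group the highest mean of Aqp1 and Car2. Hbb-bt, Slc4a1 and Epb42 were lowest in the adult wild type, and Ermap, Aqp1 and Car2 lowest in the homozygous deletion. For Aqp1 the homozygous deletion mean was 6.12 ± 1.65 CPM (SD, n = 3), and every library of the other 8 groups was above its highest value of 7.96 CPM. For Ermap and Car2 the ranges of the homozygous deletion overlapped those of other groups. Among neighbours in the order, the adult groups of Ermap, Aqp1 and Car2 overlapped one another throughout, whereas for Hbb-bt no adult library other than 10000 ppm replicate 2 reached the lowest fetal value of 38.3 CPM.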

How the data were processed

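The authors deposited a table of raw, unnormalised counts, with Ensembl genes in rows and a column for each library. Per the labels' design text, the authors mapped reads of 150 bases, 2 per fragment, with HISAT2 2.1.0 to GRCm38; the counting tool, its annotation and its use of strand are not given in the sources used here. Ribosomal RNA was depleted from total RNA. Symbols, coordinates and exon lengths came from GENCODE M21, which matched 27668 of 27728 IDs.

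Genes were filtered with filterByExpr, scaled by TMM and tested with edgeR 4.0.16 (quasi-likelihood, R 4.3.3), with Benjamini-Hochberg adjustment over all genes and a threshold of 0.05. The fetal fit held the 9 batch A libraries of the flox control and both deletions, and the adult fit all 17 adult libraries. Printed CPM used TMM over all 32 libraries, and log2 CPM a prior count of 2. Means and SDs are of CPM. Alternatives were DESeq2 1.42.0, median-ratio factors, other filters, leaving out genes with over 1% of a library's counts, only the compared groups, a replicate block and leaving out each replicate.

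The 9 genes and all lists were chosen with earlier results of these data known. From the other lists, the called genes with the 3 largest rises and 3 largest falls per tested comparison were named, here over the red-cell lists together and, separately, over the heme and the regulator lists; Ank1, Gata1 and the embryonic globins were named after their values were seen. The genes most like the members were the 5 with the highest Spearman correlation among genes with a mean of at least 5 CPM. The fits were tested on simulated counts. U2af1 itself and a gene among those most like the members are not reported here, and genotype labels were not checked.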

Additional observations from a re-analysis of the deposited data

Results flagged for a closer look

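A library was picked out where, in a group of 4 to 6 libraries, its gap to the nearest other library exceeded Dixon's 95% critical value. Outside the 10000 ppm group this held for 6 of 27 combinations of gene and group, and genes of 1 library are not independent. A chance rate of 1 in 20 holds for normally distributed values and was not checked for CPM, so no excess is read from this count. In the 10000 ppm group a library was picked out for 4 genes, which is a description only, since the level of replicate 2 was known when the genes were chosen. Each library picked out was the highest of its group.

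In the 10000 ppm group, replicate 2 was picked out for Hbb-bt (427 CPM, next 9.80), Slc4a1 (166 CPM, next 7.02) and Epb42 (11.6 CPM, next 2.84), and replicate 4 for Aqp1 (461.5 CPM, next 190). In the 1250 ppm group, replicate 1 was picked out for Hbb-bt (19.3 CPM, next 3.25) and Slc4a1 (12.5 CPM, next 1.49). In the 2500 ppm group, replicate 4 was picked out for Rhag (23.2 CPM, next 10.2), Aqp1 (356 CPM, next 150) and Car2 (483 CPM, next 205). In the S34F group, replicate 2 was picked out for Epb42 (4.29 CPM, next 2.88).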

How the results depend on the processing

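Without a filter on low counts, the members called were 4 (heterozygous deletion against flox control) and 5 (homozygous against heterozygous deletion), and the other red-cell genes called were 2 (heterozygous against flox) and 0 (1250 ppm against wild type). DESeq2 called 1 other red-cell gene at 2500 ppm against wild type. With only the compared groups, 1 member was called at 1250 ppm against wild type. Leaving out each replicate in turn gave 4 to 8 members for homozygous and 0 to 5 for heterozygous deletion against flox control, and for the other red-cell genes 0 to 4 (heterozygous against flox), 0 to 1 (1250 ppm against wild type) and 0 to 1 (2500 against 1250 ppm). The share of all genes called was not counted under these settings. The causes were not tested.

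For single genes with a test, 678 alternative values kept direction and side of the threshold, 22 gained a call, 23 lost one and 45 changed sign, of which Slc4a1 in homozygous against heterozygous deletion was the 1 called (0.72, without heterozygous replicate 3). Of the untested values for 10000 ppm, 22 moved by more than their error and 3 changed sign. Log2 fold changes that changed sign had these ranges over the replicates left out. In homozygous against heterozygous deletion they were -0.71 to 0.72 (Slc4a1), -0.76 to 0.35 (Epb42), -0.56 to 0.41 (Sptb) and -0.24 to 0.88 (Hbb-bt), and in heterozygous deletion against flox control -0.41 to 0.0026 (Aqp1). At 1250 ppm against wild type they were -0.37 to 1.19 (Sptb), -0.31 to 0.86 (Rhd), -0.30 to 0.82 (Epb42), -0.51 to 0.72 (Ermap), -0.42 to 0.31 (Aqp1), -0.36 to 0.93 (Car2) and -1.04 to 0.78 (Rhag). At 2500 ppm against wild type they were -0.097 to 1.07 (Rhd), -0.41 to 0.49 (Aqp1), -0.63 to 0.94 (Sptb), -1.42 to 0.40 (Rhag), -0.86 to 0.44 (Ermap) and -0.64 to 0.75 (Car2). At 2500 against 1250 ppm they were -0.66 to 1.91 (Slc4a1), -0.63 to 0.96 (Hbb-bt), -0.71 to 0.083 (Ermap), -0.61 to 0.098 (Car2), -0.26 to 0.68 (Rhd) and -0.35 to 0.53 (Aqp1). Without genes over 1% of any library, Sptb at 1250 ppm against wild type was at -0.0017.

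With the replicate number as a block, 4 members and 14 other red-cell genes were called in homozygous deletion against flox control, and 1 other red-cell gene at 1250 ppm against wild type. The block turned Rhd at 1250 and 2500 ppm against wild type to -0.36 and -0.14, Aqp1 at 2500 ppm against wild type to -0.47 and Slc4a1 at 2500 against 1250 ppm to 0.93, none of them called. The numbers did not pair the libraries in general. Same-numbered libraries of different groups had deviations correlated at -0.161 to 0.143 in 7 fetal pairs and -0.273 to 0.52 in 19 adult pairs, with medians of 0.0154 and 0.0156. The correlation was over 0.1 in 1 fetal and 6 adult pairs. Whether some libraries were handled together was not tested.

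Slc4a1 was at or under the limit of 3 counts in wild-type replicate 3 and in 1250 ppm replicate 5.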
